A study of Mus musculus with 10 samples.

Results

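Serotonin (5-HT) acts on cells through a family of receptors, and the mRNAs of 10 of them were followed here in the ventral hippocampus (vHpc) of ovariectomized (OVX) mice. The genes were chosen by symbol, with earlier results of these data known: Htr1a, Htr1b, Htr1d, Htr2a, Htr2c, Htr3a, Htr4, Htr5a, Htr6 and Htr7. They are 10 of the 24421 genes in the table. RNA-seq was done on young adult C57BL/6 females, either wild type (WT) or heterozygous for a knock-in BDNF Met allele (Het-Met). All animals were ovariectomized, recovered for 2 weeks, and then drank water with 0.1% ethanol for 6 weeks, either alone (vehicle) or with 300 nM estradiol (E2), about 0.7 µg per day. There were 2 libraries from vehicle-treated OVX WT mice (replicates 1 and 3), 2 from E2-treated OVX WT mice, 3 from vehicle-treated OVX Het-Met mice and 3 from E2-treated OVX Het-Met mice, and each library held RNA pooled from 2 animals. The design asks whether E2 add-back alters receptor mRNA in each genotype, and whether the genotypes differ under each treatment.

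All receptors of the family but one are coupled to G proteins. The receptors encoded by Htr1a, Htr1b, Htr1d and Htr5a act through Gi/o proteins, which restrain adenylyl cyclase and, for Htr1a, open potassium channels of the Kcnj family. Those encoded by Htr2a and Htr2c act through Gq and phospholipase C, and those encoded by Htr4, Htr6 and Htr7 through Gs, which raises cyclic AMP. Htr3a encodes the obligatory subunit of a cation channel that serotonin opens directly. The vHpc receives serotonin fibres from the raphe nuclei of the midbrain, whose cell bodies lie outside the hippocampus.

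The libraries held between 19820184 and 23267410 reads counted on genes, so that 1 read was worth 0.0430 to 0.0505 CPM, the reads of a gene per 1000000 reads counted. Markers of the hippocampal fields were present in every group, with summed levels of 347 to 452 CPM for 6 dentate granule cell markers, 564 to 721 CPM for 6 markers of CA1 and subiculum and 448 to 553 CPM for 8 markers of CA2 and CA3. Among 8 markers of raphe serotonin neurons, Fev, the transcription factor that defines them, had 4 reads over all 10 libraries. Slc6a4, the serotonin transporter, had 21. Others of the 8 were higher, with Slc18a2 at 6.38 to 9.58 CPM and Ddc at 3.64 to 6.64 CPM. The 8 summed to 16.3 to 19.8 CPM in a library. Markers of the choroid plexus, an epithelium that lines the ventricle beside the hippocampus, differed widely between libraries. The summed level of 12 such markers was 156 to 1096 CPM in vehicle-treated OVX WT mice, 1928 to 2548 in E2-treated OVX WT mice, 1478 to 3288 in vehicle-treated OVX Het-Met mice and 271 to 1571 in OVX Het-Met mice given E2.

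The receptor mRNAs differed strongly in abundance. Per kilobase of exon, and as the mean of all 10 libraries, Htr1a stood first at 9.31 ± 0.375 CPM per kb (SD, n = 10), followed by Htr3a at 9.02 ± 1.26 and Htr2c at 7.45 ± 1.23. These 3 were not cleanly ordered, since Htr1a exceeded Htr3a in only 6 of the 10 libraries and Htr3a exceeded Htr2c in 8. A middle tier held Htr7 at 4.14 ± 0.545 and Htr5a at 3.99 ± 0.328 CPM per kb, which overlapped each other, and then Htr4 at 2.51 ± 0.233. Htr6 at 1.57 ± 0.277 and Htr2a at 1.35 ± 0.291 CPM per kb also overlapped, with Htr6 ahead in 6 libraries. Htr1b at 0.349 ± 0.130 and Htr1d at 0.114 ± 0.0577 CPM per kb were the least abundant. The steps from Htr2c to Htr7, from Htr5a to Htr4, from Htr4 to Htr6 and from Htr2a to Htr1b were clean, the lowest library of the first lying above the highest library of the second. This order rests on exon lengths that may differ from the gene models counted, an error that the spread between libraries does not show. By mean CPM alone Htr2c was first at 69.5, with Htr1a at 41.7, Htr5a at 21.4 and Htr3a at 18.8. The order by group means was the same in vehicle-treated OVX WT and E2-treated OVX Het-Met mice, whereas Htr3a stood first in vehicle-treated OVX Het-Met mice. In E2-treated OVX WT mice Htr2c stood second and Htr5a stood above Htr7.

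**Figure D1:**
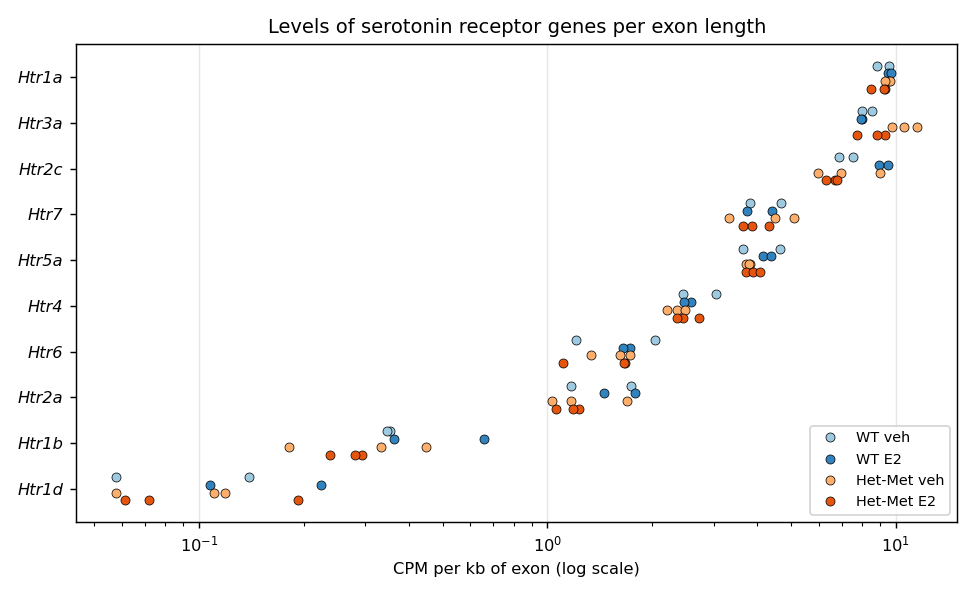
Levels of the 10 receptor genes in CPM per kb of exon (log scale), with 1 point per library coloured by group. The points of Htr1a, Htr3a and Htr2c share one range near the top, while all points of Htr1b and Htr1d lie at or below 0.655 CPM per kb.

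Changes were tested with limma on log2(CPM + 0.5) over the 15081 genes that averaged 0.5 CPM or more, among them 9 of the 10 receptor genes. Htr1d, with a mean of 0.365 CPM, fell below that level. A gene was called at a Benjamini-Hochberg adjusted p under 0.05 with a fold change above 1.3. None of the 9 receptor genes was called for E2 in WT mice, where 0.0133% of all genes tested were called, or for E2 in Het-Met mice, where 0% were called. The same count of 0 was found between genotypes under vehicle, with 0.00663% of all genes called, between genotypes under E2, with 0.0265%, and for the genotype-by-E2 interaction, with 0.0729%. Averaged over both genotypes the effect of E2 also called 0 receptor genes, with 0.00663% of all genes called, and so did the effect of genotype averaged over both treatments, with 0.0265%. edgeR called 0 receptor genes in all 7 comparisons. DESeq2, on the reads recovered from the CPM, called 1, which was Htr2c between genotypes under E2. In that comparison DESeq2 called 29 of the 15081 genes, edgeR called 14 and limma called 4.

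Differences that reached an unadjusted p under 0.05 with a fold change above 1.3 were therefore counted as well. Among the 9 receptor genes there were 0 for E2 in WT mice (2.58% of all genes), 0 for E2 in Het-Met mice (1.95%) and 0 between genotypes under vehicle (3.29%). Between genotypes under E2 there were 3, Htr1b, Htr2a and Htr2c, all lower in Het-Met mice, where 4.62% of all genes reached this level. The interaction had 1, Htr2c (3.96% of all genes), the averaged E2 effect had 0 (0.782%), and the averaged genotype effect had 1, Htr1b (1.94%). The count of 3 under E2 fell to 2 without any 1 of the 5 E2-treated libraries. By the unadjusted p alone there were 1, Htr2c, for E2 in WT mice (4.04% of all genes), 1, Htr3a, for E2 in Het-Met mice (5.45%), the same gene between genotypes under vehicle (10.7%) and the 3 already named between genotypes under E2 (11.7%). The averaged E2 effect had 1, Htr3a (3.22%), and the averaged genotype effect had 4, Htr1b, Htr2a, Htr2c and Htr3a (16.6%). With the mean level of the choroid plexus markers as a covariate, the count with the fold change limit was 1, Htr6, for E2 in WT mice (2.18% of all genes in that fit) and 1, Htr6, for E2 in Het-Met mice (1.69%). Comparing the genotypes it was 2 under vehicle, Htr3a and Htr6 (4.24%), and 2 under E2, Htr1b and Htr6 (2.29%).

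**Figure D2:**
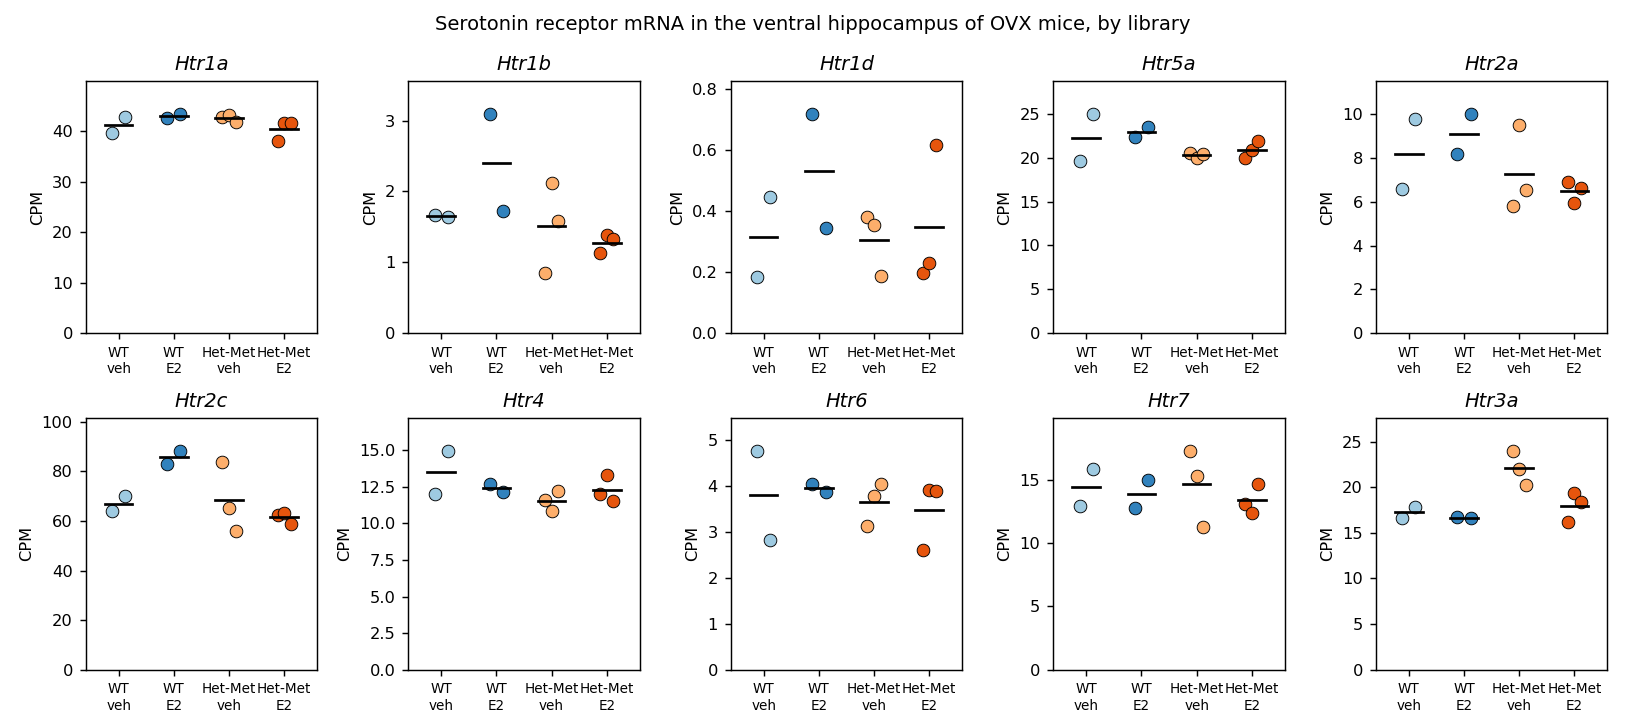
CPM of each receptor gene in every library, by group, with a line at the group mean; each panel has its own axis from 0. E2-treated OVX Het-Met mice lie below E2-treated OVX WT mice in every library for Htr1a, Htr1b, Htr2a, Htr2c and Htr5a. Of all genes tested, 14.7% have this pattern. Vehicle-treated OVX Het-Met mice lie above all other libraries for Htr3a. Of all genes tested, 14.8% are higher without overlap in vehicle-treated OVX Het-Met than in vehicle-treated OVX WT mice.

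Htr2c encodes a Gq-coupled receptor that is edited at the RNA level and is abundant in neurons and in the epithelium of the choroid plexus. It lies on chromosome X (chrX:146962513-147197277, plus strand, GRCm38/mm10). Its level was 64.0 and 70.0 CPM in vehicle-treated OVX WT mice and 83.1 and 88.4 CPM in E2-treated OVX WT mice. In Het-Met mice it was 84.0, 65.0 and 55.9 CPM with vehicle and 62.5, 63.2 and 58.9 CPM with E2. Both E2-treated OVX WT libraries stood above both vehicle-treated ones and above all 3 E2-treated OVX Het-Met libraries, while the vehicle-treated OVX Het-Met libraries spread over nearly the whole range.

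For E2 in WT mice the log2 fold change of Htr2c was 0.35 (SE 0.13, 95% interval 0.07 to 0.64, adjusted p = 0.9999), and in Het-Met mice it was -0.13 (SE 0.11, 95% interval -0.36 to 0.10). Under E2, Het-Met mice had less Htr2c than WT mice by a log2 fold change of -0.48 (SE 0.12, 95% interval -0.74 to -0.22, adjusted p = 0.317). Under vehicle the genotypes differed by 0.01 (95% interval -0.25 to 0.27). The interaction, which asks whether the effect of E2 differs between genotypes, was -0.48 (SE 0.17, 95% interval -0.85 to -0.12, adjusted p = 0.670). For the difference under E2, DESeq2 gave -0.50 with an adjusted p of 0.0251 and edgeR gave -0.50 with an adjusted p of 0.249. A limma fit on only the 5 E2-treated libraries gave an adjusted p of 0.0257, and this fit called 52 genes in all where the fit to all 10 libraries called 4. Without any 1 library the difference under E2 stayed between -0.52 and -0.43. The interaction ranged from -0.62 to -0.33, the value nearest 0 being that without replicate 1 of vehicle-treated OVX Het-Met mice, whose 84.0 CPM was well above that of the other libraries of that group.

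The choroid plexus markers ran with Htr2c in some comparisons and not in others. All 12 were higher at unadjusted p with a fold change above 1.3 for E2 in WT mice and all 12 were lower in Het-Met than in WT mice under E2, with 0 past the adjusted threshold. All 12 were also higher in Het-Met than in WT mice under vehicle, by a median of 1.46 on the log2 scale, where Htr2c differed by 0.01. For E2 in Het-Met mice 9 were lower and 0 higher at that unadjusted level, with a median of -1.18 over the 12 and -0.13 for Htr2c. In the interaction all 12 were lower at that level, with a median of -2.98, against -0.48 for Htr2c. Again 0 passed the adjusted threshold. Ttr, the most abundant of them, was at 108 and 960 CPM in vehicle-treated OVX WT mice, 2205 and 1687 in E2-treated OVX WT mice, 3055, 1316 and 1734 in vehicle-treated OVX Het-Met mice, and 1370, 362 and 204 in OVX Het-Met mice given E2. The 3 libraries with the most Htr2c were also the 3 with the highest mean log2 level of the 12 markers. The relation was not close in the others, since replicate 3 of vehicle-treated OVX Het-Met mice had the lowest Htr2c, 55.9 CPM, with 1734 CPM of Ttr. With the mean of the 12 markers as a covariate, Htr2c itself not among them, the log2 fold change of Htr2c for E2 in WT mice was 0.21, the difference under E2 was -0.36 and the interaction was -0.26, with adjusted p-values of 0.9995, 0.993 and 0.9998. Over all 10 libraries Pearson's r of the log2 level of Htr2c with that mean was 0.56 (permutation p = 0.092) and Spearman's rho was 0.52 (permutation p = 0.133). The adjusted permutation p-values over the 10 receptors so compared were 0.758 and 0.839. Pearson's r was 0.53 without the 2 libraries farthest from the median marker level and 0.32 for deviations from the group means. In bulk tissue, a different number of cells of a type and a different amount of RNA per cell cannot be told apart.

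**Figure D3:**
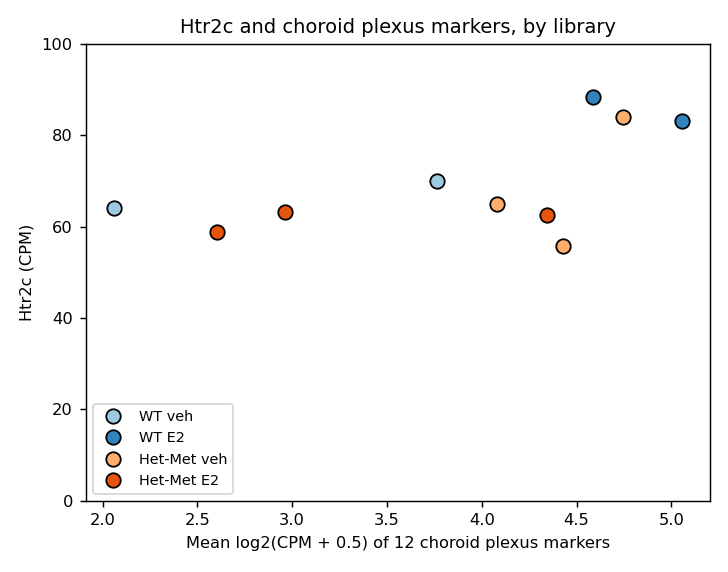
Htr2c (CPM) against the mean log2(CPM + 0.5) of 12 choroid plexus markers, with 1 point per library coloured by group. The 3 libraries above 80 CPM of Htr2c are the 3 rightmost, and below them Htr2c stays between 55.9 and 70.0 CPM over the rest of the marker range.

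Htr2a encodes the other Gq-coupled member, the receptor on which serotonergic hallucinogens act (chr14:74640840-74709494, plus strand). Its level was 6.57 and 9.76 CPM in vehicle-treated OVX WT mice, 8.17 and 10.01 in E2-treated OVX WT mice, 5.79, 9.49 and 6.54 in vehicle-treated OVX Het-Met mice, and 6.90, 5.95 and 6.64 in OVX Het-Met mice given E2. The vehicle-treated groups overlapped broadly, and only under E2 did the genotypes separate, with all 3 Het-Met libraries below both WT libraries. The log2 fold change between genotypes under E2 was -0.45 (SE 0.20, 95% interval -0.87 to -0.03, adjusted p = 0.407), and averaged over treatments it was -0.31 (SE 0.14, adjusted p = 0.292), or -0.17 without replicate 3 of vehicle-treated OVX WT mice. The interaction was not resolved, at -0.29 with a 95% interval from -0.89 to 0.31. Without replicate 2 of E2-treated OVX WT mice the difference under E2 was -0.31, and with the choroid plexus markers as a covariate it was -0.33.

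Htr1b encodes a Gi/o-coupled receptor found mainly on axon terminals, where it limits transmitter release (chr9:81628291-81633828, minus strand). It had few reads, 18 to 69 per library. Its level was 1.67 and 1.64 CPM in vehicle-treated OVX WT mice, 3.10 and 1.72 in E2-treated OVX WT mice, 0.854, 2.12 and 1.58 in vehicle-treated OVX Het-Met mice, and 1.13, 1.38 and 1.33 in E2-treated OVX Het-Met mice. Both E2-treated OVX WT libraries were above both vehicle-treated OVX WT libraries and above all E2-treated OVX Het-Met libraries, but 1 of them only barely exceeded its vehicle group. Het-Met mice had less Htr1b under E2 by -0.67 on the log2 scale (SE 0.27, 95% interval -1.24 to -0.10, adjusted p = 0.378), and averaged over treatments the difference was -0.41 (SE 0.19, adjusted p = 0.293). The value under E2 rested on replicate 1 of E2-treated OVX WT mice, without which it was -0.32 (adjusted p = 0.894), and the averaged difference was then -0.23. Without replicate 2 of that group the difference under E2 was -1.02. With the choroid plexus markers as a covariate it was -0.83 (adjusted p = 0.993).

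The promoters of Htr2c, Htr2a and Htr1b are shown because these 3 reached the unadjusted level with the fold change limit between genotypes under E2. The genes were thus picked from these same data, and limma on all 10 libraries called none of them. E2 acts through receptors that bind DNA, but whether these promoters play a part in the values was not tested. Each window runs from 250 bases before to 50 bases after the RefSeq start of transcription (GRCm38.p6), 5′ to 3′ on the strand of the gene: chrX:146962263-146962562 (plus), chr14:74640624-74640923 (plus) and chr9:81633783-81634082 (minus). Capitals mark an estrogen response element half-site (GGTCA, or TGACC on the other strand) or a GC box bound by Sp1 (GGGCGG, or CCGCCC on the other strand).
Htr2c: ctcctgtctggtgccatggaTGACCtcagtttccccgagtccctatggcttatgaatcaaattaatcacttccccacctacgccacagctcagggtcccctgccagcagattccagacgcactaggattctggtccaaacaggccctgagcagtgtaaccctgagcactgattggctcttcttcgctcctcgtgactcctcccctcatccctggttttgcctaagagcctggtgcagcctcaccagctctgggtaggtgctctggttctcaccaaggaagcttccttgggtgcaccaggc
Htr2a: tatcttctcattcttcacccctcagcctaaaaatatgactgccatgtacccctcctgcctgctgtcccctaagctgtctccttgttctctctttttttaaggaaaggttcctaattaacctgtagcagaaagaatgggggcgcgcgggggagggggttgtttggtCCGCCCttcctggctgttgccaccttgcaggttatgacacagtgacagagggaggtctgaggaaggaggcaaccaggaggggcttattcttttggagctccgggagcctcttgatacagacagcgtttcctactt
Htr1b: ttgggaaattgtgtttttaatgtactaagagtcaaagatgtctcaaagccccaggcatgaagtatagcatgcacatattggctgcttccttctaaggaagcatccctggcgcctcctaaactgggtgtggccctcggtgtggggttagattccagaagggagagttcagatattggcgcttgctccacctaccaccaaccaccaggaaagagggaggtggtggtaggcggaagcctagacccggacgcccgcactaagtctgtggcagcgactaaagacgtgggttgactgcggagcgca
The Htr2c window held 1 half-site, on the reverse strand 230 bases before the start, and no GC box. The Htr2a window held 1 GC box, 85 bases before the start, and no half-site, and the Htr1b window held neither. RefSeq promoters were found for 8 of the 10 genes, and none held the full element GGTCANNNTGACC, which is in 0.0700% of the 32851 promoters of the same length. Among the other receptor genes, half-sites were in windows of Htr1d and Htr6, and GC boxes in windows of Htr1a, Htr1d and Htr6. Half-sites are common, with 40.5% of all promoters holding at least 1, as are GC boxes, with 35.7%. These matches describe letters in the windows and not sites of binding.

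Htr3a encodes the subunit on which every 5-HT3 channel depends, and in the hippocampus its mRNA marks a set of GABAergic interneurons (chr9:48899213-48911099, minus strand). Its level was 16.7 and 17.8 CPM in vehicle-treated OVX WT mice and 16.7 and 16.6 CPM in E2-treated OVX WT mice. In Het-Met mice it was 24.0, 21.9 and 20.3 CPM with vehicle and 16.1, 19.4 and 18.4 CPM with E2. All 3 vehicle-treated OVX Het-Met libraries were above every one of the other 7, and the E2-treated OVX Het-Met libraries overlapped those of WT mice. Under vehicle, Het-Met mice had more Htr3a than WT mice by 0.34 on the log2 scale (SE 0.11, 95% interval 0.11 to 0.58, adjusted p = 0.357). For E2 in Het-Met mice the log2 fold change was -0.29 (SE 0.10, 95% interval -0.50 to -0.08, adjusted p = 0.753). For E2 in WT mice it was -0.05 (95% interval -0.30 to 0.21), and the interaction, which tests the difference between these effects, was -0.24 (SE 0.15, 95% interval -0.57 to 0.09), so that a difference between the genotypes in the effect of E2 was not shown. Without any 1 library the difference under vehicle lay between 0.28 and 0.40 and the effect of E2 in Het-Met mice between -0.35 and -0.22. With the choroid plexus markers as a covariate they were 0.38 and -0.32.

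The summed level of 13 interneuron markers was 1772 to 1807 CPM in vehicle-treated OVX WT mice, 1860 to 1875 in E2-treated OVX WT mice, 1638 to 1900 in vehicle-treated OVX Het-Met mice and 1823 to 1875 in E2-treated OVX Het-Met mice. None of the 13 reached an unadjusted p under 0.05 between genotypes under vehicle, and none was called in any comparison. For E2 in Het-Met mice 2 were higher and 0 lower at that unadjusted level, where 5.45% of all genes reached it in either direction. Htr3b, which encodes a second subunit of the channel, had 8 reads over all libraries and was at 0 in 5 of them, which allows up to 0.135 to 0.142 CPM in the libraries without a read.

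Htr1a encodes the main Gi/o-coupled receptor of hippocampal pyramidal neurons and was the steadiest of the family (chr13:105443639-105448122, plus strand). Its level was 39.6 and 42.8 CPM in vehicle-treated OVX WT mice, 42.5 and 43.4 in E2-treated OVX WT mice, 42.7, 43.2 and 41.8 in vehicle-treated OVX Het-Met mice, and 38.1, 41.6 and 41.5 in OVX Het-Met mice given E2. The highest library exceeded the lowest by a factor of only 1.14, against 1.58 for Htr2c and 3.63 for Htr1b. E2-treated OVX Het-Met libraries were below the vehicle-treated ones of the same genotype and below the E2-treated OVX WT ones, without overlap, but by little. The log2 fold changes were -0.08 (95% interval -0.22 to 0.07) and -0.09 (95% interval -0.26 to 0.08), so that changes of Htr1a as large as those of Htr2c between genotypes under E2 lie outside these intervals.

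Htr5a, a less studied Gi/o-coupled receptor (chr5:27842149-27855088, plus strand), was at 19.6 and 25.03 CPM in vehicle-treated OVX WT mice, 22.4 and 23.5 in E2-treated OVX WT mice, 20.5, 20.0 and 20.4 in vehicle-treated OVX Het-Met mice, and 20.0, 20.9 and 22.0 in OVX Het-Met mice given E2. The 3 E2-treated OVX Het-Met libraries lay just below the 2 E2-treated OVX WT libraries. The log2 difference under E2 was -0.13 (95% interval -0.36 to 0.10), and E2 shifted Htr5a by 0.05 in WT mice and 0.04 in Het-Met mice, well within the spread. Htr1d, which encodes a Gi/o-coupled relative of the Htr1b receptor (chr4:136423524-136444398, plus strand), had only 4 to 16 reads per library. Its levels, 0.185 and 0.446, then 0.718 and 0.344, then 0.380, 0.353 and 0.186, and then 0.196, 0.230 and 0.617 CPM in the same order of groups, overlapped in every comparison. In a fit without the filter, over 20118 genes, its log2 fold change was 0.33 for E2 in WT mice (95% interval -0.23 to 0.90) and -0.29 between genotypes under E2 (95% interval -0.81 to 0.23), intervals that include both 0 and changes of more than 1.3-fold.

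None of the 3 Gs-coupled receptors was among the genes at an unadjusted p under 0.05 with a fold change above 1.3 in any of the 7 comparisons. Htr4, whose receptor is the target of prokinetic drugs and is expressed by hippocampal neurons, is on chromosome 18 and had 10.8 to 14.97 CPM. It was at 11.98 and 14.97 CPM in vehicle-treated OVX WT mice against 11.6, 10.8 and 12.2 CPM in vehicle-treated OVX Het-Met mice, groups that overlapped, with a log2 difference of -0.21 (95% interval -0.47 to 0.05), or -0.05 without replicate 3 of vehicle-treated OVX WT mice. Under E2 the genotypes differed by -0.02 (95% interval -0.28 to 0.25).

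Htr7, which encodes a Gs-coupled receptor with roles in the regulation of sleep and circadian timing (chr19:35958734-36057507, minus strand), had 11.3 to 17.3 CPM, and both the highest and the lowest library were of vehicle-treated OVX Het-Met mice. Its log2 fold changes lay between -0.11 for E2 in Het-Met mice and 0.01 between genotypes under vehicle, with a widest interval over the 4 pairwise comparisons of -0.42 to 0.32 for E2 in WT mice.

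Htr6, whose Gs-coupled receptor sits on neuronal primary cilia (chr4:139061108-139075570, minus strand), was at 4.77 and 2.82 CPM in vehicle-treated OVX WT mice, 4.04 and 3.87 in E2-treated OVX WT mice, 3.13, 3.78 and 4.03 in vehicle-treated OVX Het-Met mice, and 2.59, 3.92 and 3.89 in OVX Het-Met mice given E2. The 2 vehicle-treated OVX WT libraries bracketed all but 1 of the others. The log2 difference between genotypes under E2 was -0.19 (SE 0.21, 95% interval -0.64 to 0.27) and the interaction was -0.17 (SE 0.30, 95% interval -0.81 to 0.48). Htr6 was the receptor whose values depended most on the choroid plexus covariate: with it, the log2 fold change was -1.18 for the interaction, 0.73 for E2 in WT mice and -0.69 for Het-Met against WT mice given E2. These values reached an unadjusted p under 0.05 and did not pass the adjusted threshold, with adjusted p-values of 0.9998, 0.9995 and 0.993. Pearson's r of Htr6 with the mean of the choroid plexus markers was -0.93 for deviations from the group means and -0.41 over all 10 libraries. Without the 2 libraries farthest from the median marker level it was 0.05. Htr6 had 53 to 103 reads per library.

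**Figure D4:**
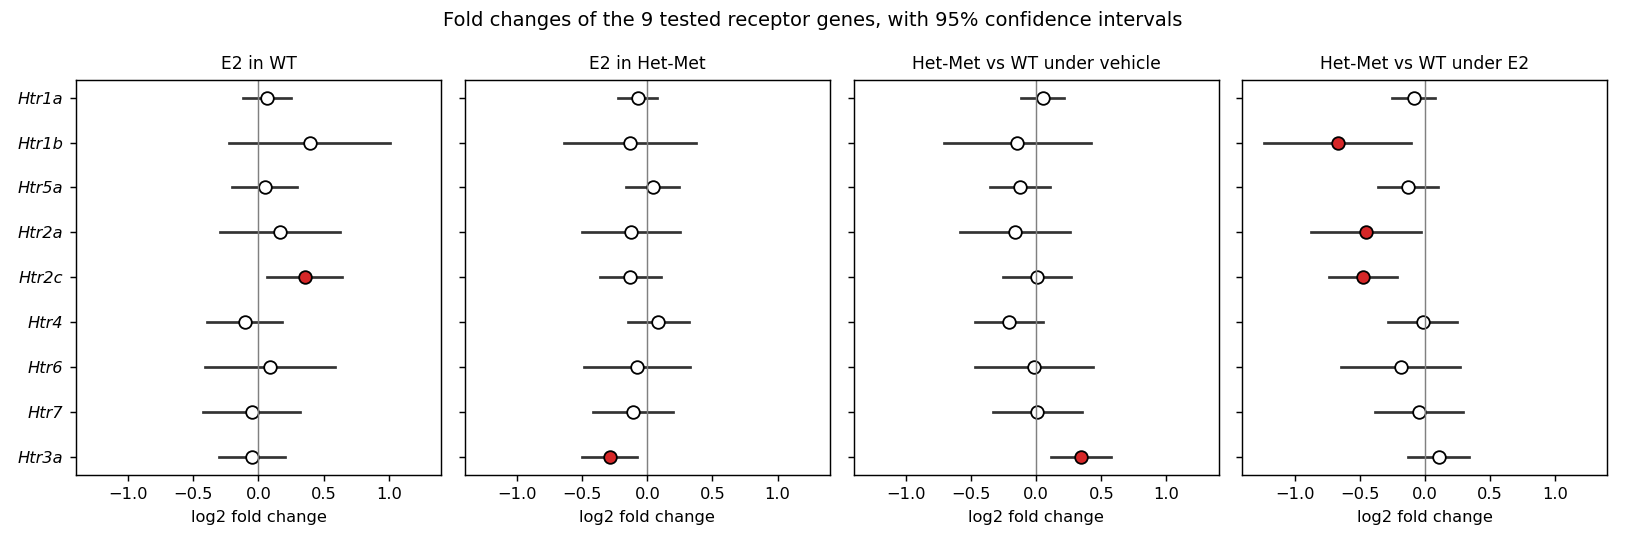
Log2 fold changes of the 9 tested receptor genes in the 4 pairwise comparisons, from limma on log2(CPM + 0.5). Bars are 95% confidence intervals, and filled points have an unadjusted p under 0.05: Htr2c at 0.35 for E2 in WT mice, Htr3a at -0.29 for E2 in Het-Met mice and 0.34 between genotypes under vehicle, and Htr1b, Htr2a and Htr2c at -0.67, -0.45 and -0.48 between genotypes under E2.

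Seen as a group, the receptor genes leaned to lower values in Het-Met mice given E2. Against E2-treated OVX WT mice, 8 of the 9 tested were lower, all but Htr3a, where 42.7% of all genes tested were lower, and the median log2 fold change was -0.13 for the receptor genes and 0.03 for all genes. The 8 were also lower after median-of-ratios, TMM and quantile scaling, but Htr4 and Htr7 lay close to 0, so that 7 were lower without either E2-treated OVX WT library or without replicate 2 or 3 of the Het-Met mice given E2, and 6 with the choroid plexus covariate. Markers of other tissue differed in the same comparison. All 12 choroid plexus markers were lower in Het-Met mice. The median of 8 thalamus and habenula markers was 0.28 on the log2 scale, with 3 higher and 0 lower at an unadjusted p under 0.05. The median of 8 neocortex markers was 0.18, also with 3 higher and 0 lower. Of all genes, 11.7% reached that unadjusted p in either direction. Their summed levels were 209 to 258 CPM (thalamus and habenula) and 308 to 333 CPM (neocortex) in Het-Met mice given E2, against 200 to 201 and 277 to 288 CPM in WT mice given E2. None of these markers was called, and none of the 16 was at 0 in all 10 libraries. The part of these markers in the values of the receptor genes was not tested beyond the choroid plexus covariate. In 5 of the 9, Htr1a, Htr1b, Htr2a, Htr2c and Htr5a, no library of E2-treated OVX Het-Met mice reached the lowest library of E2-treated OVX WT mice, where 14.7% of all genes had this pattern. The interaction was likewise below 0 for 8 of the 9 (48.6% of all genes), all but Htr4, with medians of -0.17 and 0.01, and for 6 to 8 of the 9 when 1 library was left out and 6 with the choroid plexus covariate. In the interaction 5 of the 8 neocortex markers were higher at an unadjusted p under 0.05, where 818 of all 15081 genes reached it in either direction. These comparisons share the E2-treated libraries and are not separate evidence.

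Averaged over both treatments, 8 of the 9 were also lower in Het-Met mice (42.7% of all genes), again all but Htr3a. The median was -0.11 against 0.02 for all genes. Without replicate 3 of vehicle-treated OVX WT mice 6 were lower. Averaged over both genotypes, 5 were higher with E2 (50.9% of all genes) and 4 lower, with a median of 0.01 against 0.00. Between genotypes under vehicle 4 receptor genes were higher and 5 lower (44.7% of all genes), with a median of -0.02 against 0.02 for all genes, and 1 of the 9, Htr3a, was higher without overlap (14.8% of all genes). The signs of Htr2c and Htr7 in that comparison changed after median-of-ratios and TMM scaling, their values being within 0.02 of 0. For E2 in WT mice 6 were higher (49.0% of all genes) and 3 lower, with a median of 0.06 against -0.00. Without replicate 1 of vehicle-treated OVX WT mice 4 were higher and 5 lower. In all libraries 2, Htr1b and Htr2c, were higher without overlap (15.6% of all genes). For E2 in Het-Met mice 2 were higher and 7 lower (48.2% of all genes), with a median of -0.11 against 0.00. Without replicate 1, or without replicate 2, of vehicle-treated OVX Het-Met mice 4 were higher and 5 lower. In all libraries 2, Htr1a and Htr3a, were lower without overlap (5.11% of all genes). The reads on all 10 receptor genes together came to 178 and 201 CPM, 206 and 215 CPM, 210, 192 and 174 CPM, and 173, 182 and 179 CPM in the 4 groups in the order above. Htr2c held between 32.1% and 41.1% of that sum.

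The table holds 4 further serotonin receptor genes. Htr5b, a relative of Htr5a, averaged 6.19 ± 0.207 (SD, n = 2) and 5.41 ± 0.413 CPM (n = 2) in the vehicle and E2 groups of WT mice and 4.84 ± 0.592 and 4.64 ± 0.723 CPM (n = 3 each) in the Het-Met groups. Averaged over treatments it was lower in Het-Met mice by -0.27 on the log2 scale (SE 0.11, adjusted p = 0.248). Htr1f, a Gi/o-coupled receptor targeted by migraine drugs, had 0.696 to 1.71 CPM and a log2 difference of -0.33 (SE 0.15, adjusted p = 0.297) in the same comparison. Both are below the fold change limit or the adjusted threshold and were named after their values were seen. Htr2b had 34 reads in all and, like Htr3b, was too low to test.

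Of 12 genes for the making, transport and breakdown of serotonin, 11 were tested and 0 were called in any comparison. Tph2, the enzyme that makes serotonin in neurons, was low, at 0.648 and 0.793 CPM in vehicle-treated OVX WT mice, 0.897 and 0.559 in E2-treated OVX WT mice, 0.854, 1.06 and 1.21 in vehicle-treated OVX Het-Met mice, and 1.22, 1.52 and 1.61 in E2-treated OVX Het-Met mice. All 3 E2-treated OVX Het-Met libraries were thus above every other library, but the lowest of them only barely. It had 1.223 CPM, against 1.206 CPM for replicate 3 of the vehicle group of that genotype. This gap was smaller than what 1 read was worth in either library, 0.0489 and 0.0464 CPM. For Tph2 the log2 difference between genotypes under E2 was 0.68 (SE 0.21, adjusted p = 0.340). Slc29a4, a low-affinity monoamine transporter that is also found in choroid plexus, averaged 46.4, 54.3, 60.0 and 49.8 CPM in the 4 groups in the same order, with an interaction of -0.48 (SE 0.18, adjusted p = 0.689). With the choroid plexus covariate that interaction was -0.04. Maoa, which breaks serotonin down, averaged between 35.9 and 37.3 CPM in all 4 groups.

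No gene of the signalling lists beneath the receptors passed the test. Of 10 genes of Gi/o signalling, 8 of Gq signalling, 12 of Gs signalling and 14 receptor partners and regulators, all were tested and 0 were called in any comparison. At an unadjusted p under 0.05 with a fold change above 1.3, 1 Gi/o gene was lower in Het-Met mice under vehicle. This was Kcnj6, a subunit of the potassium channel opened by the Htr1a receptor, at 39.4 and 42.1 CPM in vehicle-treated OVX WT mice and 21.2, 34.9 and 36.6 CPM in vehicle-treated OVX Het-Met mice. The log2 fold change was -0.43 (SE 0.17, adjusted p = 0.422), in a comparison where 3.29% of all genes reached the unadjusted level with the fold change limit. That value rested on replicate 1 of vehicle-treated OVX Het-Met mice, at 21.2 CPM, without which it was -0.19 (adjusted p = 0.743). Averaged over treatments the difference was -0.38 (SE 0.12, adjusted p = 0.162). In the Gs list 1 gene, the adenylyl cyclase Adcy8, had an interaction of 0.39 (SE 0.17, adjusted p = 0.845), which was 0.19 without replicate 1 and 0.60 without replicate 3 of vehicle-treated OVX WT mice and -0.06 with the choroid plexus covariate. The Gq list and the partners, which include the editing enzyme Adar and the arrestins, had 0 at that level. Of the marker lists, 2 genes were called for the interaction, Fibcd1 of CA1 pyramidal neurons at -0.69 (SE 0.10, adjusted p = 0.0333) and Igf2 of meninges and choroid plexus at -1.23 (SE 0.20, adjusted p = 0.0454). Without 1 library the adjusted p rose to as much as 0.225 for Fibcd1 and 0.376 for Igf2, and with the choroid plexus covariate it was 0.9998 for each.

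The genes whose levels ran most like those of 7 receptors over the 10 libraries were sought among 11729 genes by Pearson's r of log2 levels. For Htr2c these were Gm4980 (r = 0.93), Myo5b (0.92) and Cyp20a1 (0.90), and for Htr2a they were Cpeb3 (0.96), Gmps (0.95) and Gapvd1 (0.94). Htr3a ran most like Ccdc126 (0.95), Ndufs3 (0.95) and Eif3i (0.94). For Htr1a the leading genes were Otud7a (0.91), Sar1a (0.90) and Ddost (0.88), for Htr7 Dlst (0.91), Blcap (0.88) and Nars (0.87), for Htr6 Ubald1 (0.92), Snx15 (0.87) and Itpka (0.86), and for Htr4 Lrch2 (0.89), Camta1 (0.87) and Lss (0.85). No gene appeared for more than 1 of these receptors. With 10 libraries in 4 groups and so many genes searched, high values arise readily, and the points share library and depth.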

How the data were processed

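Total RNA of the vHpc was sequenced as 10 single-end libraries from a stranded kit. After trimming and filtering, the authors mapped reads with TopHat2 to the mm10 genome and deposited CPM per gene symbol, scaled to the reads counted on genes in each library. The version of the aligner and the annotation used for counting are not given in the sources used here. All values (100% per library) were multiples of what 1 read was worth there (tolerance 0.01), which gave back whole reads, 19820184 to 23267410 per library. The limits given for genes without a read (3 reads) cover counting error only.

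Genes averaging under 0.5 CPM were left out, and log2(CPM + 0.5) of the other 15081 was fitted with limma 3.58.1 in R 4.3.3. The fit held the means of the 4 groups over all 10 libraries, with variances moderated by empirical Bayes along a trend on intensity, and tests were two-sided. Fold changes are on the log2(CPM + 0.5) scale, which understates changes of low genes. Calls took the study's limits, a p under 0.05 after Benjamini-Hochberg adjustment over all genes tested with a fold change above 1.3. p-values measure the spread between libraries, each a pool of 2 animals. The scripts were tested on simulated data. Libraries of one group differed by more than sampling noise in every pair (chi-square per degree of freedom 3.29 to 13.5).

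Alternatives were edgeR 4.0.16 and DESeq2 1.42.0 on recovered reads, a pseudocount of 0.1 or 1, no filter or one at 2 CPM, no fold change limit, median-of-ratios, TMM and quantile scaling, a replicate block, only the libraries compared, a choroid plexus covariate, and each library left out in turn. Exon lengths and positions came from GENCODE vM21 and promoters from RefSeq, both on GRCm38; 23376 of the 24421 symbols, all 10 receptors among them, were matched to GENCODE. The receptor genes and the gene lists were chosen with earlier results of these data known. All receptors are named. Of each other list, the genes named are those called, or else up to 2 per comparison with the smallest unadjusted p under 0.05 and a fold change above 1.3, and any other gene is background to a result. For likeness, the 3 genes with the highest r were taken for receptors with a mean of at least 2 CPM, among genes of at least 5 CPM. The likeness result of Htr5a is not reported here.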

Additional observations from a re-analysis of the deposited data

How the results depend on the processing

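The number of receptor genes called was 0 in all 7 comparisons and under every alternative, with the exception of the genotypes under E2, where DESeq2 called 1 and the fit to only the libraries compared called 1, in both cases Htr2c. DESeq2 called 29 genes in that comparison and limma 4. The count at an unadjusted p under 0.05 with a fold change above 1.3 moved more. Without the fold change limit it was 1 for each pairwise effect of E2, in WT and in Het-Met mice (4.04% and 5.45% of all genes), 1 between genotypes under vehicle (10.7%), 1 for the averaged effect of E2 (3.22%) and 4 for the averaged effect of genotype (16.6%). With the choroid plexus covariate it was 1 for E2 in WT mice (2.18% of all genes in that fit), 1 for E2 in Het-Met mice (1.69%) and 2 between genotypes under vehicle (4.24%). For the averaged effect of genotype it fell from 1 to 0 with DESeq2, with a pseudocount of 0.1 or 1, without the filter, with a mean of at least 2 CPM, which leaves 8 receptor genes, and with the replicate block. Leaving out 1 library gave 0 to 1 for E2 in WT mice, 0 to 1 between genotypes under vehicle, 0 to 1 for the interaction, 2 to 3 between genotypes under E2 and 0 to 2 for the averaged effect of genotype. The lower count for the interaction is without replicate 1 of vehicle-treated OVX WT mice.

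Of 1415 alternative values of the 63 fold changes, 1325 kept their sign and their side of the threshold, 88 changed sign without being called and 2 were newly called, both Htr2c between genotypes under E2. The replicate numbers did not pair the Het-Met libraries: deviations from the group means correlated at -0.12, 0.02 and -0.07 for replicates 1, 2 and 3, and the replicate block changed no call. The cause of these shifts was not tested. Groups of 2 or 3 libraries, and 4 to 69 reads for Htr1b and Htr1d, limit what could be resolved.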
